A study of Mus musculus with 36 samples.

Results

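The transcripts of 35 genes that drive entry into mitosis and its passage were followed in mouse embryonic fibroblasts (MEFs) that carry or lack PERK. The genes were taken by name, from a list of mitosis and G2/M genes, out of 36856 gene symbols in the deposited table, and all 35 were found and passed the filter on low counts. The libraries were made from total RNA of WT and PERK -/- cells, written here as Perk-null, with 3 replicate libraries in each of 12 groups. Each genotype received DMSO as the vehicle, thapsigargin, BtdCPU, halofuginone, BtdCPU with thapsigargin, or halofuginone with thapsigargin. Dose, duration, harvest batch, the way the Perk allele was made, and whether each genotype is a clone or a pool are not given in the sources used here. Nothing states that the replicates were separate cultures, so the p-values measure only the spread between these libraries, which may be technical. Genotype cannot be told apart from any other difference between the WT and the Perk-null cells.

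PERK is a kinase of the endoplasmic reticulum membrane that phosphorylates the translation factor eIF2 when unfolded proteins accumulate, which starts the integrated stress response. Thapsigargin blocks the calcium pump of the endoplasmic reticulum and so activates PERK. BtdCPU is known as an activator of HRI, and halofuginone, an inhibitor of prolyl-tRNA charging, as an activator of GCN2, both of them kinases of the same factor, eIF2. The study's title places the work in the question of whether such a kinase can stand in for PERK.

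Mitosis genes are transcribed late in the cell cycle. Cyclin A2 and the B cyclins activate the kinase CDK1, CDC25C removes the inhibitory phosphates from CDK1, and Bora helps Aurora A to switch on PLK1. Aurora B works with INCENP and survivin (Birc5) in the chromosomal passenger complex. The kinetochore joins chromosomes to microtubules, and the spindle checkpoint holds back the anaphase-promoting complex until every chromosome is attached. Kinesins and their partners then build the midzone, and anillin and ECT2 shape the cleavage furrow. In bulk RNA, fewer cells in G2 and M and less RNA per such cell cannot be told apart.

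Many promoters of this class hold CCAAT boxes, bound by NF-Y, and a cell cycle genes homology region, with the core TTTGAA or TTTAAA, to which DREAM and MuvB complexes bind. RefSeq promoters of build GRCm38.p6, which run from 250 bases before to 50 bases after the transcription start, were matched for 28 of the 35 genes. The letters TTTGAA or TTTAAA, on either strand, occurred in 24 of the 28 (85.7%), against 30.6% of 27025 genes with such a promoter. Within the 250 bases before the start alone they occurred in 16 of 28 (57.1%), against 28.1%. CCAAT on either strand occurred in 21 of 28 (75.0%), against 41.1%. Both occurred in 20 of 28 (71.4%), against 12.2% of all genes and 9.5% of the 11158 with a promoter that were also tested for expression. TTTAAA is its own reverse complement, a CCAAT box can share its last T with a following TTTGAA or TTTAAA, and a match describes the sequence, not a bound site. Kif20a, Ccna2, Aurkb, Cdc25c, Incenp, Tpx2 and Bora had no entry.

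The 150 bases before the start are shown for the genes whose values carry the results below, 5′ to 3′ on the gene's own strand, with the 3 motifs named above, on either strand, in capitals. Ccnb1 lies at chr13:100786487-100786636 (minus strand), Cdk1 at chr10:69352913-69353062 (minus), Plk1 at chr7:122159285-122159434 (plus), Top2a at chr11:99024190-99024339 (minus), Mki67 at chr7:135716380-135716529 (minus), Bub1b at chr2:118598061-118598210 (plus), Anln at chr9:22389207-22389356 (minus) and Nuf2 at chr1:169531465-169531614 (minus). Top2a and Cdk1 carry several copies of these letters, Bub1b carries a single CCAAT box, and Anln and Nuf2 carry none of the motifs in the window. After the start, outside the window, Anln, Bub1b and Plk1 hold TTTGAA.
Ccnb1: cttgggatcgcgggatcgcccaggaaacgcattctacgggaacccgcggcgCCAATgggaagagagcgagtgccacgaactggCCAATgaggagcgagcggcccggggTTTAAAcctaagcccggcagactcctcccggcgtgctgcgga
Cdk1: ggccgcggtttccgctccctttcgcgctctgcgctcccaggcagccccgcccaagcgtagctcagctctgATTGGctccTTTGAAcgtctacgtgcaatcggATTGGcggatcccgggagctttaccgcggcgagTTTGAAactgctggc
Plk1: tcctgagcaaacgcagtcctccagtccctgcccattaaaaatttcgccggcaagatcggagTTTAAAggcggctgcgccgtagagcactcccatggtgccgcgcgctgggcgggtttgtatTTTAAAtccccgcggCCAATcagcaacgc
Top2a: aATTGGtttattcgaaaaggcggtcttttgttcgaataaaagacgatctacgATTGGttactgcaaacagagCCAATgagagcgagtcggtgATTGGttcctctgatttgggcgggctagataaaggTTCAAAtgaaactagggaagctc
Mki67: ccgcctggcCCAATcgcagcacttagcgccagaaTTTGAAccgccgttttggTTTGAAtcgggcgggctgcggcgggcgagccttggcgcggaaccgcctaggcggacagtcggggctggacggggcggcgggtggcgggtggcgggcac
Bub1b: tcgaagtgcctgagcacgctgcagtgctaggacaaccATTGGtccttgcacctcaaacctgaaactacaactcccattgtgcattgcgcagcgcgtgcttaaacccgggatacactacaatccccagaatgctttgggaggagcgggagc
Anln: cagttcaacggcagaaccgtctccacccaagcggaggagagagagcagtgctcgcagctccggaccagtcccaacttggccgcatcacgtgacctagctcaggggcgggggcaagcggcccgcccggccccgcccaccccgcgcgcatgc
Nuf2: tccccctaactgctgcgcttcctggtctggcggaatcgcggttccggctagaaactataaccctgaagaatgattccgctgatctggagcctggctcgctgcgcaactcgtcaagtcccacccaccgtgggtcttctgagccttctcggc

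Library totals ran from 32454257 to 37178107 estimated counts, and the 35 genes had 601 to 42589 counts per library, so counting error was small beside the spread between libraries. Levels are CPM, a gene's counts scaled to a library's TMM-adjusted total, and were compared only within a gene, since they are not divided by length. Eif2ak3, which encodes PERK, was at 30.3, 32.4 and 30.7 CPM in WT and 9.37, 9.67 and 10.8 CPM in Perk-null DMSO libraries. The deleted part is not named, so reads from the rest of the gene cannot check the deletion. Of the marker lists, 10 of 10 fibroblast genes were above 3 counts, with a sum of 14038 to 34441 CPM, although Lum was at 0 in some libraries. Sums of 4 epithelial genes ran from 0.114 to 22.2 CPM, with a mean of 17.7 in WT halofuginone against 0.243 in WT DMSO libraries, and their part in the results was not tested. Sums of the 4 endothelial genes reached 4.71 CPM, of the 4 blood genes 23.1, of the 3 muscle genes 0.625 and of the 3 pluripotency genes 1.33. Reads of Ccnb1 are uncertain, because processed pseudogenes with up to 99.2% identity over 1287 bases are not listed in the table, and so are those of Mad2l1 and Ndc80, which have shorter near copies. Exons of Kif20a, Kif4, Prc1, Ccna2, Nusap1, Ube2c, Cdc20 and Plk1 overlap a gene on the other strand, and whether reads were counted by strand is not given in the sources used here.

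Averaged over the 35 genes on the log2 scale, and set against the mean of the WT DMSO libraries, the 3 WT DMSO libraries lay at 0.20, -0.057 and -0.14. The 3 Perk-null DMSO libraries lay higher, at 0.34, 0.25 and 0.24. With thapsigargin the WT libraries fell to -0.44, -0.36 and -0.19, and the Perk-null libraries stayed at 0.43, 0.31 and 0.33. BtdCPU with thapsigargin brought the Perk-null libraries to -0.13, -0.093 and -0.29, below all 3 of their thapsigargin libraries. Halofuginone with thapsigargin in WT cells had the lowest group mean, with libraries at -0.90, -0.84 and -0.64, and these overlapped the WT halofuginone libraries, at -0.76, -0.73 and -0.44.

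**Figure D1:**
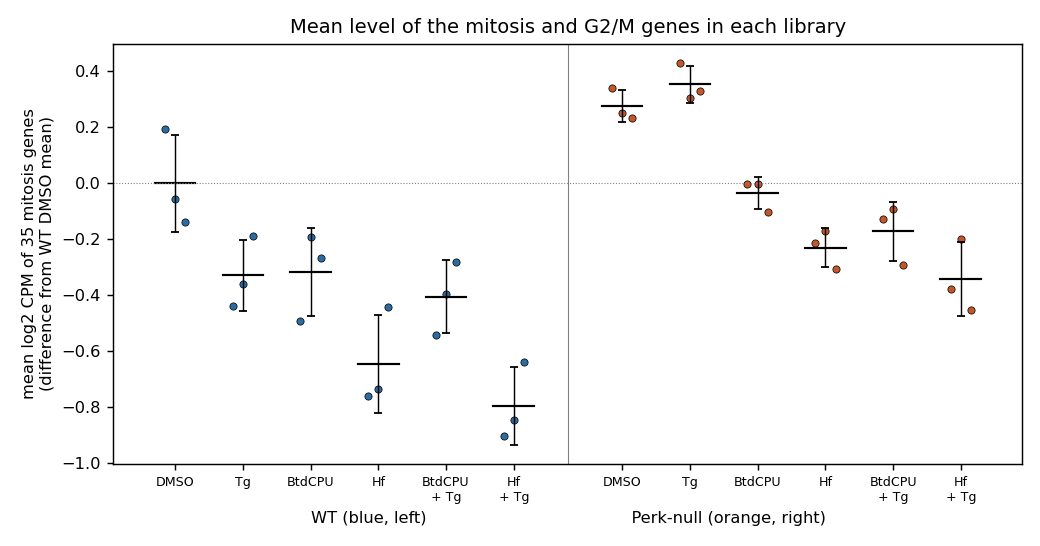
Mean log2 CPM of the 35 genes in each library, as the difference from the WT DMSO mean; points are libraries, bars the mean and SD of 3 libraries, by treatment and genotype. Perk-null thapsigargin libraries sit at 0.31 to 0.43, and WT thapsigargin libraries at -0.44 to -0.19.

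The vehicle groups were compared first, because every response is measured from them. In DMSO, 15 of the 35 genes were higher and 2 lower in Perk-null than in WT cells, beside a background of 24.6% of 16065 tested genes called higher and 24.9% called lower (edgeR quasi-likelihood test, adjusted p below 0.05). The median difference of the 35 was 0.31 on the log2 scale, against 0.021 for all tested genes. All 3 mitotic exit genes were higher, as were 3 of the 6 cyclin and CDK1 genes, 3 of the 6 mitotic kinase and passenger genes, 4 of the 9 kinesin, spindle and cytokinesis genes and 2 of the 9 checkpoint and kinetochore genes. Top2a and Mki67 did not pass the test.

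Ect2, the exchange factor that activates RhoA at the cleavage furrow, was at 137, 111 and 118 CPM in WT and 287, 255 and 259 CPM in Perk-null DMSO libraries. The lowest Perk-null library was above the highest WT library, and the log2 difference was 1.13 (SE 0.16, adjusted p = 8.01e-07). Ccnb1, which encodes cyclin B1, was at 42.6, 31.9 and 24.2 CPM in WT and 70.8, 66.2 and 63.2 CPM in Perk-null cells, again without overlap, with a difference of 1.02 (SE 0.16, adjusted p = 2.28e-06). Ube2c, the ubiquitin-conjugating enzyme of the anaphase-promoting complex, differed by 0.87, Aurka by 0.83, Ccna2 by 0.80 and Espl1, which encodes separase, by 0.76 (adjusted p from edgeR 3.43e-05, 0.000866, 1.63e-08 and 2.99e-05). Exosc9, which overlaps Ccna2 on the other strand, was also higher, by 0.59.

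Nuf2, a subunit of the NDC80 complex at the outer kinetochore, went the other way, from 125, 111 and 103 CPM in WT to 74.8, 69.8 and 66.1 CPM in Perk-null cells (log2 difference -0.68, SE 0.11, adjusted p = 3.99e-06). Anln, which encodes the furrow scaffold anillin, went from 491, 382 and 458 to 325, 266 and 288 CPM (log2 difference -0.60, SE 0.11, adjusted p = 5.7e-05). In both genes all WT libraries were above all Perk-null libraries. Ndc80, the partner of Nuf2 in the same complex, was at 108, 98.7 and 78.1 and 116, 105 and 90.2 CPM, and these libraries overlapped (log2 difference 0.13, SE 0.13, adjusted p = 0.432). Cdk1 was at 669, 599 and 445 CPM in WT and 434, 505 and 392 CPM in Perk-null DMSO libraries, Plk1 at 197, 151 and 155 and 172, 151 and 175, Top2a at 1201, 878 and 1119 and 1046, 878 and 937, and Mki67 at 489.5, 373 and 571 and 485, 379 and 474. The groups overlapped in these 4 genes, and WT DMSO replicate 1 was the highest library of its group for Cdk1, Plk1, Top2a and Ccnb1. Of the 17 calls, 12 of the 15 higher and both lower ones held when any 1 of the 6 libraries was left out, with Bub1, Prc1 and Nusap1 as the exceptions. Cdkn1a, the gene of the CDK inhibitor p21, was at 56.1, 52.1 and 55.6 CPM in WT and 4.97, 5.10 and 3.39 CPM in Perk-null DMSO libraries (log2 difference -3.60, SE 0.16, adjusted p = 1.61e-18), and its part in the differences above was not tested.

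The thapsigargin groups show how mitosis genes responded to a compound that stresses the endoplasmic reticulum. In WT cells 18 of the 35 genes fell and 2 rose, beside 22.7% of all tested genes called lower and 24.9% called higher. The median change was -0.38 against 0.015 for all tested genes. Decreases covered 7 of 9 checkpoint and kinetochore genes, 4 of 6 cyclin and CDK1 genes, 3 of 9 kinesin, spindle and cytokinesis genes, 2 of 6 mitotic kinase and passenger genes, and both Top2a and Mki67. No mitotic exit gene fell.

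Nuf2 fell from 125, 111 and 103 CPM to 53.0, 52.1 and 47.7 CPM, a log2 change of -1.15 (SE 0.11, adjusted p = 4.53e-10). Cdk1 fell from 669, 599 and 445 CPM to 308, 334 and 265 CPM, a change of -0.92 (SE 0.16, adjusted p = 1.43e-05). In both genes every treated library was below every DMSO library. Mad2l1, which encodes the checkpoint protein MAD2, changed by -0.90, Ccnb2 by -0.76, Birc5 by -0.75, Cenpf by -0.62 and Kif20a, a kinesin of the midzone, by -0.61. The gene that overlaps Kif20a on the other strand, Cdc23, changed by -0.42. Top2a, the topoisomerase that untangles sister chromatids, was at 1201, 878 and 1119 CPM in DMSO and 762, 781 and 734 CPM in thapsigargin libraries (log2 change -0.49, SE 0.10, adjusted p = 0.000159). Bora rose from 43.4, 34.2 and 37.1 to 52.0, 51.5 and 68.5 CPM (log2 change 0.58, SE 0.12, adjusted p = 0.000131), with no overlap. Cdc20, the activator of the anaphase-promoting complex, was at 191, 177 and 141 CPM and 197, 199 and 290.4 CPM (log2 change 0.43, SE 0.14, adjusted p = 0.013).

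Ccnb1 was at 23.5, 26.9 and 25.6 CPM with thapsigargin (log2 change -0.38, SE 0.16, adjusted p = 0.048) and Mki67 at 284, 311 and 431 CPM (log2 change -0.48, SE 0.16, adjusted p = 0.0155), and in both genes the treated libraries overlapped those in DMSO. The calls of 13 of the 18 genes that fell, and that of Bora, held without any 1 of the 6 libraries. The call of Ccnb1 was lost without WT DMSO replicate 1 (-0.15), WT DMSO replicate 2 (-0.40), WT thapsigargin replicate 1 (-0.33) or WT thapsigargin replicate 3 (-0.39), that of Mki67 without WT DMSO replicate 3 (-0.34) or WT thapsigargin replicate 1 (-0.37), that of Cdc20 without WT DMSO replicate 3 (0.31) or WT thapsigargin replicate 3 (0.22), that of Bub1b without WT DMSO replicate 1 (-0.25) or WT thapsigargin replicate 1 (-0.33), that of Cenpa without WT DMSO replicate 2 (-0.33) and that of Kif11 without WT DMSO replicate 1 (-0.28). The calls of Ccnb1, Mki67, Cdc20 and Bub1b were also lost when only these 2 groups were fitted. Plk1 did not pass the test, at 112, 118 and 153 CPM (log2 change -0.39, SE 0.19, adjusted p = 0.0908).

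In Perk-null cells thapsigargin raised 4 of the 35 genes and lowered 1, beside 15.2% of all tested genes called higher and 12.7% called lower. The median change was 0.041, and 0.046 for all tested genes. Ccnb2, the second B cyclin, rose from 118, 115 and 110.2 to 168, 162 and 158 CPM, with no overlap (log2 change 0.50, SE 0.12, adjusted p = 0.00129). Nusap1, a protein that bundles spindle microtubules, rose from 149, 155 and 120.1 to 229, 212 and 206 CPM (log2 change 0.61, SE 0.18, adjusted p = 0.012), and its overlapping neighbour Oip5 rose by 0.84. Bora fell from 56.7, 53.3 and 62.7 to 36.7, 35.8 and 40.3 CPM (log2 change -0.61, SE 0.12, adjusted p = 0.000144), where it had risen in WT cells. Cdk1 was at 429, 448 and 376 CPM with thapsigargin (log2 change -0.087, SE 0.16, adjusted p = 0.742), Mki67 at 554, 451 and 551 (log2 change 0.22, SE 0.16, adjusted p = 0.354), Plk1 at 167, 164 and 175 (log2 change 0.026, SE 0.19, adjusted p = 0.96), Top2a at 1154, 949.7 and 1009.6 (log2 change 0.12, SE 0.10, adjusted p = 0.408) and Ccnb1 at 67.7, 67.8 and 58.4 (log2 change -0.046, SE 0.15, adjusted p = 0.88). All 5 overlapped their DMSO libraries and none passed the test. The calls of Ccnb2 and Bora held without any 1 library, while that of Nusap1 was lost without Perk-null DMSO replicate 3 (0.47). The count of 5 fell to 2 without Perk-null DMSO replicate 3, and to 3 without Perk-null thapsigargin replicate 1 or 2.

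The difference between the genotypes was tested as an interaction, the Perk-null response minus the WT response. It was positive and passed the test in 17 genes and negative in 1, beside 19.5% and 18.6% of all tested genes, with a median of 0.41 against 0.027. The 17 included 6 of 9 checkpoint and kinetochore genes, 4 of 9 kinesin, spindle and cytokinesis genes, 3 of 6 cyclin and CDK1 genes, 2 of 6 kinase and passenger genes, and both Top2a and Mki67. Ccnb2 gave the most positive value, 1.27 (SE 0.17, adjusted p = 3.27e-07), having fallen in WT and risen in Perk-null cells. Bora gave the only negative call, -1.20 (SE 0.17, adjusted p = 8.83e-07). Nuf2 differed by 1.13 (SE 0.15, adjusted p = 6.49e-07), Mad2l1 by 0.94 (SE 0.29, adjusted p = 0.0101) and Cdk1 by 0.83 (SE 0.22, adjusted p = 0.0032). The calls of 13 of the 17, and that of Bora, held without any 1 of the 12 libraries, and Ccna2, Ttk, Nusap1 and Mki67 were the exceptions. The Mki67 difference, 0.70 (SE 0.23, adjusted p = 0.016), was not called without Perk-null DMSO replicate 2 (0.60), WT DMSO replicate 3 (0.55) or WT thapsigargin replicate 1 (0.58).

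**Figure D2:**
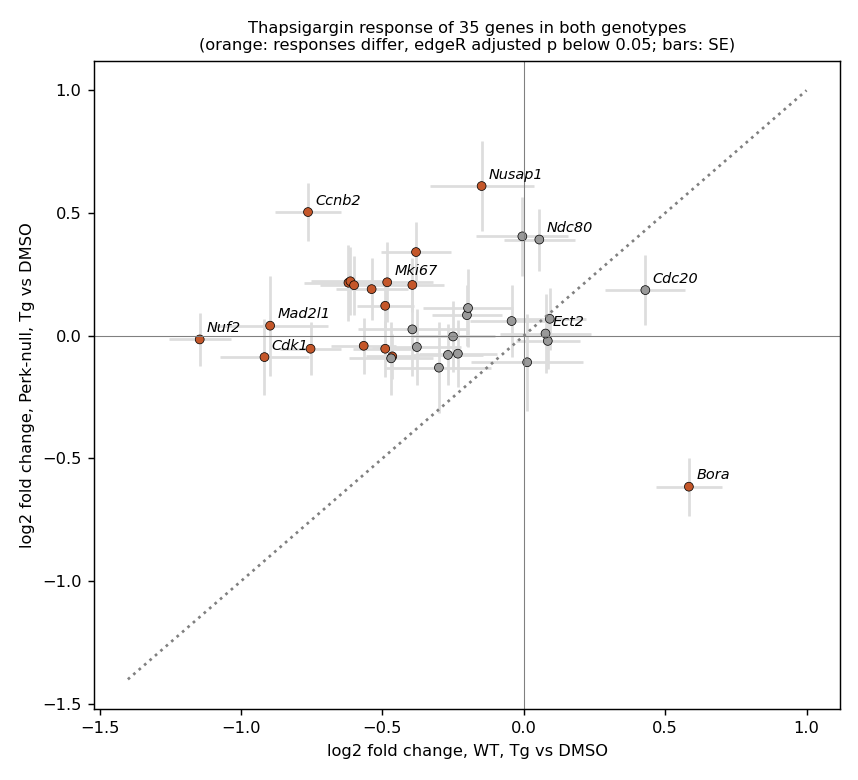
Log2 fold change with thapsigargin in WT cells (horizontal axis) and Perk-null cells (vertical axis) for the 35 genes, with bars of 1 SE; orange marks genes whose responses differed (interaction adjusted p below 0.05) and the dotted line equal responses. Ccnb2, at -0.76 and 0.50, and Bora, at 0.58 and -0.61, lie farthest from the line, on opposite sides.

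With BtdCPU alone in WT cells 13 of the 35 genes fell and none rose, beside 9.31% of tested genes called lower and 12.9% called higher, with a median of -0.29 against -0.006. Mad2l1 was at 164, 171 and 112 CPM in DMSO and 66.2, 125 and 63.9 CPM with BtdCPU, where replicate 2 overlapped the DMSO range (log2 change -0.80, SE 0.21, adjusted p = 0.00473). Cdk1 was at 269.7, 433 and 312 CPM, below all DMSO libraries (log2 change -0.76, SE 0.16, adjusted p = 0.000664). Nuf2 changed by -0.66, Aurkb by -0.62, Ttk by -0.57 and Kif11, the kinesin that separates spindle poles, by -0.49. Those 4 and Cdk1 were the 5 genes whose calls held without any 1 library, and the call of Mad2l1 was lost without WT BtdCPU replicate 1 (-0.65) or WT BtdCPU replicate 3 (-0.63). Plk1 was at 105, 135 and 146 CPM, Top2a at 841, 857 and 745, Mki67 at 339, 363 and 469 and Ccnb1 at 22.5, 30.9 and 27.6. Of these 4 only Top2a passed the test (log2 change -0.39, SE 0.10, adjusted p = 0.00516), and not without WT BtdCPU replicate 3 (-0.33) or WT DMSO replicate 1 (-0.29). The count of 13 was 6 without WT BtdCPU replicate 1 or WT DMSO replicate 1, 8 without WT BtdCPU replicate 3, and 1 when only these 2 groups were fitted.

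In Perk-null cells 34 of the 35 values were below 0 and the median was -0.31 (all tested genes 0.00), but 4 genes passed the test, all of them lower, beside 1.04% of tested genes called lower and 2.55% called higher. Kif11 fell from 370.1, 352 and 306 to 262, 238 and 217 CPM (log2 change -0.52, SE 0.11, adjusted p = 0.00432), and this was the call that held without any 1 library. Ttk, which encodes the checkpoint kinase MPS1, was at 99.2, 91.0 and 83.2 and 68.6, 69.7 and 62.6 CPM (log2 change -0.44, SE 0.11, adjusted p = 0.02), and its call was lost with scaling by library size alone and without Perk-null BtdCPU replicate 1 (-0.47), Perk-null BtdCPU replicate 3 (-0.41), Perk-null DMSO replicate 1 (-0.38) or Perk-null DMSO replicate 2 (-0.45). Cdk1 was at 332, 314 and 285 CPM, Mki67 at 309, 301 and 318, Plk1 at 110.2, 127 and 131, Top2a at 807, 753 and 734 and Ccnb1 at 51.4, 53.9 and 44.3. None of these 5 genes passed the test (edgeR adjusted p 0.0595, 0.0672, 0.26, 0.0738 and 0.147). Their BtdCPU libraries were all below their DMSO libraries, but the share of all tested genes that separated this way was not counted. The separation is therefore not read as a result. The count of 4 was 1 without Perk-null BtdCPU replicate 1 or 3 or Perk-null DMSO replicate 1 or 2, 2 without Perk-null BtdCPU replicate 2, and 22 when only these 2 groups were fitted. The interaction passed the test in 0 of 35 genes, beside 0.0373% of all tested genes called higher and 0.162% called lower. DESeq2 called 0 of the 35, and 1 gene had an unadjusted p below 0.05 by edgeR. The median of the interaction was -0.006. Without WT BtdCPU replicate 2 it passed in 1 gene.

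BtdCPU was also added to thapsigargin, and here the genotypes differed. In WT cells 0 of 35 genes passed the test, beside 1.29% of tested genes called higher and 1.02% called lower. The median was -0.070, with 3 genes at an unadjusted p below 0.05 by edgeR and 0 called by DESeq2. With the replicate number as a block, 1 gene was called higher and 1 lower. Cdk1 was at 241, 312 and 241 CPM with both compounds, Mki67 at 357, 358 and 480.3, Plk1 at 93.4, 99.7 and 122, Top2a at 729, 784 and 694 and Ccnb1 at 20.1, 22.7 and 22.6. Of these 5, only Ccnb1 had all 3 libraries below those of thapsigargin alone, and its change did not pass the test (log2 change -0.21, SE 0.16, adjusted p = 0.518).

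In Perk-null cells 26 of the 35 genes fell and none rose when BtdCPU was added to thapsigargin, beside 18.3% of tested genes called lower and 17.3% called higher. The median was -0.56 against -0.040. Decreases covered 7 of 9 checkpoint and kinetochore genes, 7 of 9 kinesin, spindle and cytokinesis genes, 4 of 6 cyclin and CDK1 genes, 4 of 6 kinase and passenger genes, 2 of 3 mitotic exit genes, and both Top2a and Mki67. Mki67, the usual proliferation mark, fell from 554, 451 and 551 to 253, 249.9 and 230.2 CPM (log2 change -1.08, SE 0.17, adjusted p = 4.65e-06). Nusap1 fell from 229, 212 and 206 to 118, 126 and 95.9 CPM (log2 change -0.93, SE 0.18, adjusted p = 0.000188), back within the range of its DMSO libraries or below it. Its overlapping neighbour Oip5 changed by -0.64. The treated libraries were below all thapsigargin libraries in both genes.

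Cdk1 fell from 429, 448 and 376 to 277, 283 and 218 CPM (log2 change -0.69, SE 0.16, adjusted p = 0.000808), Plk1 from 167, 164 and 175 to 86.8, 109 and 88.1 (log2 change -0.84, SE 0.19, adjusted p = 0.000932) and Top2a from 1154, 949.7 and 1009.6 to 806, 775 and 666 (log2 change -0.47, SE 0.10, adjusted p = 0.000418), all without overlap. Ccnb1 was at 48.4, 54.4 and 45.9 CPM and did not pass the test (log2 change -0.38, SE 0.15, adjusted p = 0.0529). Cenpf changed by -0.87, Kif20a by -0.84, Nuf2 by -0.83 and Kif2c, a kinesin that depolymerises microtubules at kinetochores, by -0.73. Bora, Tpx2 and Ect2 were among the 9 that did not pass. The calls of 18 of the 26 held without any 1 library, and the other 8 were Cdc25c, Incenp, Mad2l1, Ndc80, Prc1, Anln, Cdc20 and Ube2c.

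The interaction for adding BtdCPU to thapsigargin was negative and passed the test in 14 genes, and positive in none, beside 10.1% of tested genes called lower and 10.7% called higher. Its median was -0.47, against -0.049 for all tested genes. Mki67 gave the most negative value, -1.31 (SE 0.23, adjusted p = 0.000107), having gone from 342 ± 78.6 to 399 ± 70.7 CPM in WT and from 519 ± 58.5 to 244 ± 12.5 CPM in Perk-null cells (mean ± SD, n = 3). Ccnb2 differed by -0.77 (SE 0.17, adjusted p = 0.000981), Nuf2 by -0.69 (SE 0.15, adjusted p = 0.00143) and Birc5 by -0.74 (SE 0.15, adjusted p = 0.000607). This interaction and the one for thapsigargin share the thapsigargin libraries, which enter them with opposite signs. The calls of 8 genes held without any 1 of the 12 libraries, and the count was 8 without Perk-null BtdCPU-thapsigargin replicate 3.

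Against DMSO, which the comparison with thapsigargin alone does not use, BtdCPU with thapsigargin lowered 20 genes and raised 1 in WT cells (24.5% and 28.0% of tested genes) and lowered 25 in Perk-null cells (14.6% and 16.8%), with medians of -0.46 and -0.43. In WT cells Nuf2 changed by -1.28 and Cdk1 by -1.11, and Bora rose by 0.52 (adjusted p 4.54e-11, 6.94e-07 and 0.000436). In Perk-null cells Mki67 changed by -0.87 and Nuf2 by -0.84 (adjusted p 0.000109 and 3.63e-07), and Bora changed by -0.43 (adjusted p 0.00469). The Perk-null count was 15 without Perk-null BtdCPU-thapsigargin replicate 3, which was the lowest of its group for Cdk1, Mki67 and Top2a.

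Halofuginone gave the largest single-gene decreases among the single compounds. In WT cells 24 of the 35 genes fell and 3 rose, beside 33.4% and 34.7% of tested genes, with a median of -0.43 against 0.004. Decreases covered 7 of 9 checkpoint and kinetochore genes, 5 of 9 kinesin, spindle and cytokinesis genes, 4 of 6 in each of the cyclin and kinase groups, 2 of 3 mitotic exit genes, and both Top2a and Mki67. Kif20a fell from 482, 439 and 441 to 90.8, 76.7 and 106 CPM (log2 change -2.31, SE 0.15, adjusted p = 9.66e-15). Bub1b, which encodes the checkpoint kinase-like protein BubR1, fell from 318, 266 and 229 to 62.5, 59.6 and 64.4 CPM (log2 change -2.12, SE 0.13, adjusted p = 5.74e-15). In both genes every halofuginone library was below every DMSO library.

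Kif2c changed by -1.92, Ttk by -1.57, Cdc20 by -1.48, Aurkb by -1.33 and Ccnb2 by -1.27 (adjusted p 2.24e-14, 4.53e-13, 1.85e-10, 1.8e-10 and 6.82e-11). Plk1 fell from 197, 151 and 155 to 55.1, 54.4 and 94.4 CPM (log2 change -1.30, SE 0.20, adjusted p = 6.95e-07) and Cdk1 from 669, 599 and 445 to 271, 272 and 269 CPM (log2 change -1.08, SE 0.16, adjusted p = 4.49e-07), both without overlap. The values for Cenpe, a kinetochore motor (-0.044), Ndc80 (0.24) and Nusap1 (-0.12) did not pass the test. The log2 changes were uneven within role groups, from -2.12 for Bub1b to 0.24 for Ndc80 among checkpoint and kinetochore genes.

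The 3 genes that rose were Prc1, Anln and Bora. Prc1, which crosslinks the midzone microtubules, rose from 256, 179 and 208 to 304, 326 and 438 CPM (log2 change 0.73, SE 0.15, adjusted p = 6.15e-05), and its overlapping neighbour Rccd1 rose by 0.60. Anln rose from 491, 382 and 458 to 639, 691 and 842 CPM (log2 change 0.71, SE 0.11, adjusted p = 2.58e-06), and Bora from 43.4, 34.2 and 37.1 to 55.3, 49.0 and 62.8 CPM (log2 change 0.54, SE 0.12, adjusted p = 0.00016). All 3 were without overlap, and WT halofuginone replicate 3 was the highest library for each. Cdc23, which overlaps Kif20a on the other strand, fell by 0.51, and Elovl1, which overlaps Cdc20, changed by -0.48 (edgeR adjusted p = 6.94e-05). Mki67 was at 322, 309 and 469 CPM (log2 change -0.38, SE 0.16, adjusted p = 0.0388), Top2a at 871, 818 and 878 (log2 change -0.32, SE 0.10, adjusted p = 0.00629) and Ccnb1 at 23.1, 22.5 and 27.7 (log2 change -0.43, SE 0.16, adjusted p = 0.0167), and these overlapped DMSO. The calls of 16 of the 24 and all 3 rises held without any 1 library. Those of Mki67, Top2a and Ccnb1 did not: Mki67 was lost without WT DMSO replicate 1 (-0.37), WT DMSO replicate 3 (-0.24), WT halofuginone replicate 1 (-0.36) or WT halofuginone replicate 2 (-0.28), Top2a without WT DMSO replicate 1 (-0.23) and Ccnb1 without WT DMSO replicate 1 (-0.21) or WT halofuginone replicate 2 (-0.38). Without WT halofuginone replicate 3 the change of Mki67 was -0.64. Its call was also lost with RLE scaling and with DESeq2, and the calls of all 3 when only these 2 groups were fitted.

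**Figure D3:**
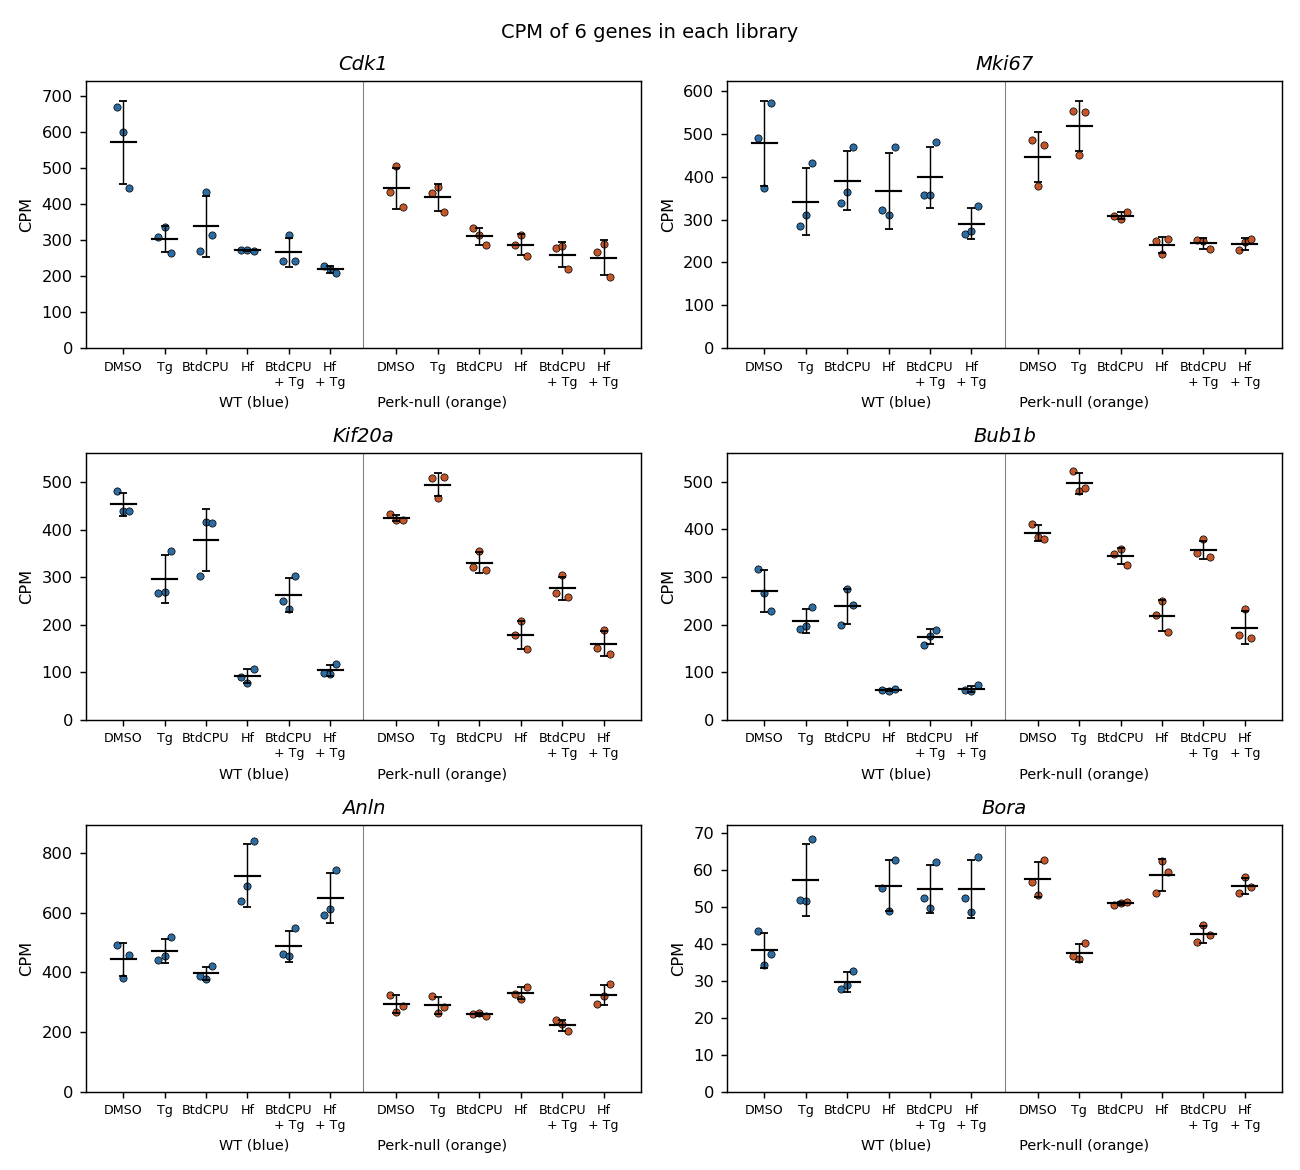
CPM of Cdk1, Mki67, Kif20a, Bub1b, Anln and Bora in each of the 36 libraries, by treatment, with WT in blue and Perk-null in orange; bars are the mean and SD of 3 libraries, and each panel starts at 0. Kif20a is at 76.7 to 106 CPM in WT and 149.6 to 209 CPM in Perk-null halofuginone libraries, against 420.4 to 482 CPM in the DMSO libraries of both genotypes.

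In Perk-null cells halofuginone lowered 23 of the 35 genes and raised 1, beside 21.0% and 21.2% of tested genes, with a median of -0.55 against 0.00. Kif20a fell from 433, 421 and 420.4 to 178, 209 and 149.6 CPM (log2 change -1.25, SE 0.14, adjusted p = 1.68e-08) and Aurkb from 103, 93.6 and 103 to 51.3, 53.4 and 41.1 CPM (log2 change -1.04, SE 0.13, adjusted p = 9.07e-08). Neither overlapped. Mki67 fell from 485, 379 and 474 to 249.7, 219 and 254 CPM (log2 change -0.89, SE 0.16, adjusted p = 5.11e-05), Cdk1 from 434, 505 and 392 to 287, 315 and 256 (log2 change -0.63, SE 0.16, adjusted p = 0.00139), Ccnb1 from 70.8, 66.2 and 63.2 to 42.6, 48.0 and 35.2 (log2 change -0.67, SE 0.16, adjusted p = 0.000769) and Top2a from 1046, 878 and 937 to 737, 690.1 and 662 (log2 change -0.45, SE 0.10, adjusted p = 0.000461). These 4 were also without overlap. Plk1 was at 103, 137 and 90.6 CPM (log2 change -0.59, SE 0.19, adjusted p = 0.0135), a call lost without Perk-null halofuginone replicate 1 (-0.55) or Perk-null halofuginone replicate 3 (-0.46). Ndc80 was the gene that rose, from 116, 105 and 90.2 to 132, 127 and 131 CPM (log2 change 0.32, SE 0.13, adjusted p = 0.0385), and its call was lost with scaling by library size alone and without Perk-null DMSO replicate 2 (0.33), Perk-null DMSO replicate 3 (0.24), Perk-null halofuginone replicate 1 (0.31), Perk-null halofuginone replicate 2 (0.34) or Perk-null halofuginone replicate 3 (0.33). The calls of 21 of the 23 held without any 1 library.

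The interaction for halofuginone passed the test in 11 genes, 8 positive and 3 negative, beside 17.5% and 17.5% of tested genes, with a median of 0.050 against 0.001. Bub1b gave the most positive value, 1.28 (SE 0.18, adjusted p = 2.21e-06), having gone from 271 ± 44.5 to 62.2 ± 2.40 CPM in WT and from 392 ± 17.1 to 218 ± 32.7 CPM in Perk-null cells (mean ± SD, n = 3). Kif2c (1.10), Kif20a (1.07), Cdc20 (0.93), Ttk (0.73) and Ccnb2 (0.61) also fell less in Perk-null cells, with adjusted p of 1.09e-05, 9.97e-05, 0.00056, 0.000702 and 0.0046. Prc1 gave the most negative value, -0.83 (SE 0.21, adjusted p = 0.00233), since it rose in WT and was at 268, 257 and 258 CPM against 290.2, 265 and 283 CPM in Perk-null cells. The Anln difference was -0.53 (SE 0.16, adjusted p = 0.0104), and its call was lost without Perk-null halofuginone replicate 2 (-0.44) or WT halofuginone replicate 3 (-0.37). Cdkn1a rose in both genotypes, from 54.6 ± 2.16 to 145 ± 7.53 CPM in WT and from 4.49 ± 0.952 to 22.0 ± 1.53 CPM in Perk-null cells, and its part in these decreases was not tested.

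**Figure D4:**
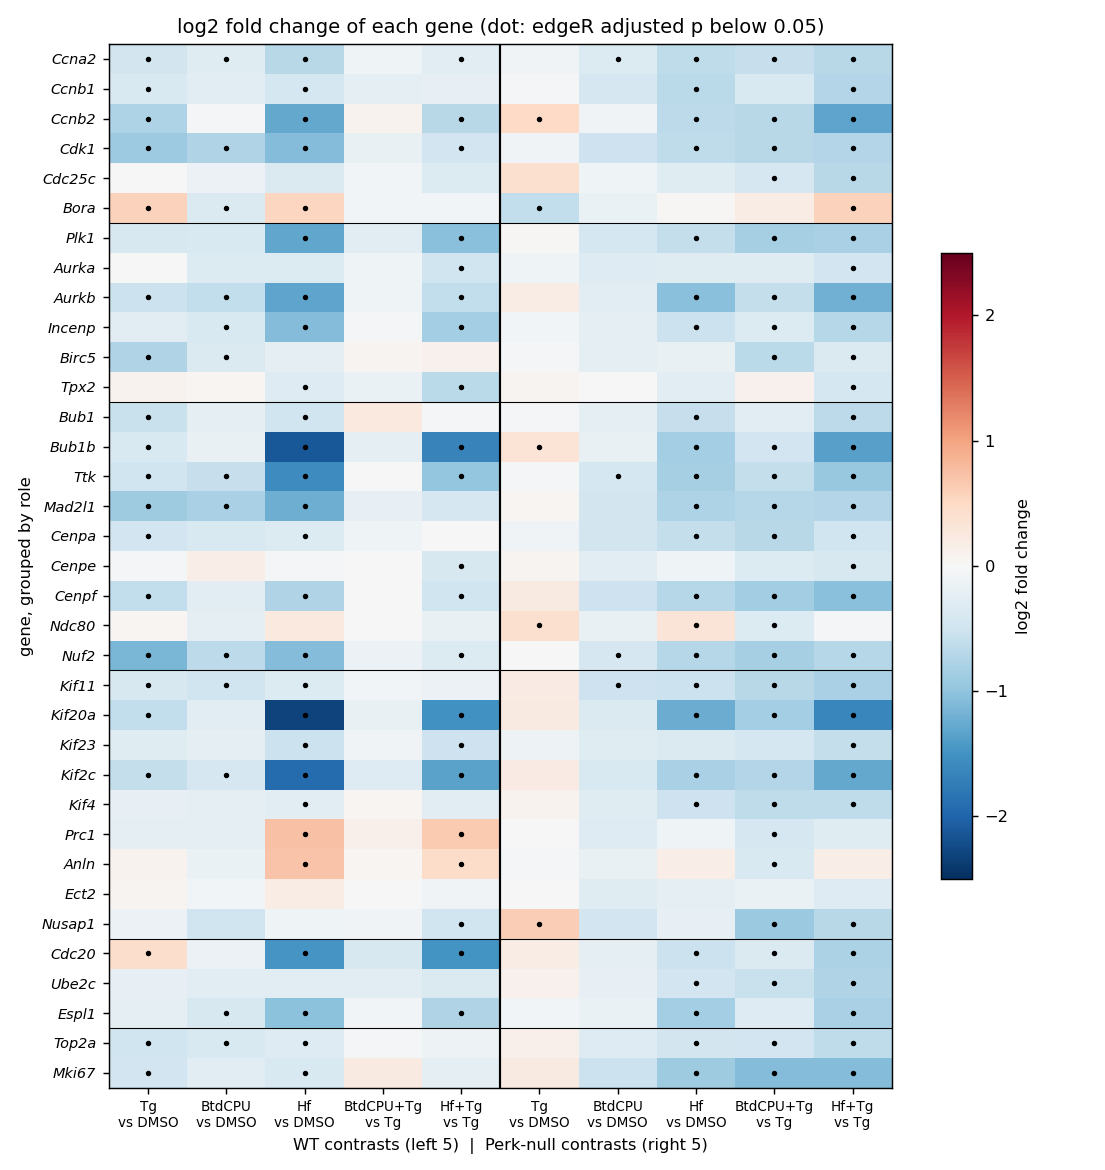
Log2 fold change of the 35 genes, ordered by role, in 10 comparisons of treatments within a genotype; blue is lower, red higher, and a dot marks an adjusted p below 0.05. Kif20a and Bub1b, at -2.31 and -2.12, are the darkest cells of the WT halofuginone column, and the Perk-null thapsigargin column has 5 dots against 20 in WT.

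Halofuginone added to thapsigargin lowered 19 genes and raised 2 in WT cells, measured from thapsigargin alone, beside 22.5% and 22.8% of tested genes. The median was -0.40 against 0.00. Bub1b fell from 191, 196 and 236 to 61.9, 61.1 and 72.0 CPM (log2 change -1.68, SE 0.13, adjusted p = 9.68e-12) and Kif20a from 267, 268 and 355 to 98.6, 97.1 and 117 CPM (log2 change -1.51, SE 0.14, adjusted p = 5.74e-10). Prc1 rose from 158, 169 and 213 to 237, 259.9 and 351 CPM (log2 change 0.65, SE 0.15, adjusted p = 0.000547) and Anln from 442, 453 and 517 to 592, 612 and 745 CPM (log2 change 0.47, SE 0.11, adjusted p = 0.00123). Rccd1, which overlaps Prc1, rose by 0.59, and Cdc23, which overlaps Kif20a, changed by 0.003. The libraries of Bub1b, Kif20a, Prc1 and Anln did not overlap between the groups. Cdc20, which had risen with thapsigargin alone, fell to 72.1, 89.0 and 83.4 CPM (log2 change -1.49, SE 0.14, adjusted p = 1.07e-09), and Plk1 fell to 53.7, 49.1 and 82.8 CPM (log2 change -1.04, SE 0.19, adjusted p = 5.39e-05). Elovl1, which overlaps Cdc20, changed by -0.51. Cdk1 was at 227, 218 and 209 CPM (log2 change -0.47, SE 0.16, adjusted p = 0.0139), a call lost without WT halofuginone-thapsigargin replicate 3 (-0.44) or WT thapsigargin replicate 2 (-0.41). Mki67 at 266, 272 and 333, Top2a at 679.6, 704 and 698 and Ccnb1 at 19.9, 18.9 and 26.8 CPM did not pass. With the replicate number as a block, Mki67 was called lower (log2 change -0.22, edgeR adjusted p = 0.0263). Cdc25c, Mad2l1, Kif4 and Ube2c were also gained as lower with the block (edgeR adjusted p 0.0391, 0.00402, 0.0184 and 0.0238), while Top2a and Ccnb1 still did not pass. The calls of 11 of the 19 and both rises held without any 1 library.

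In Perk-null cells 30 of the 35 genes fell and 1 rose when halofuginone was added to thapsigargin, beside 27.5% and 25.2% of tested genes. The median was -0.71 against -0.014. All 6 kinase and passenger genes, all 3 mitotic exit genes, 8 of 9 checkpoint and kinetochore genes, 5 of 6 cyclin and CDK1 genes, 6 of 9 kinesin, spindle and cytokinesis genes, and both Top2a and Mki67 fell. Kif20a fell from 508, 466 and 511 to 152, 189.9 and 138 CPM (log2 change -1.63, SE 0.14, adjusted p = 3.84e-11) and Bub1b from 523, 479.9 and 488 to 177, 233 and 172 CPM (log2 change -1.36, SE 0.13, adjusted p = 1.57e-10). Bora rose from 36.7, 35.8 and 40.3 to 53.7, 58.1 and 55.3 CPM (log2 change 0.57, SE 0.12, adjusted p = 0.000143), into the range of its DMSO libraries. All 3 were without overlap, and Cdc23, which overlaps Kif20a on the other strand, changed by -0.43.

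Mki67 was at 228, 248 and 255 CPM (log2 change -1.09, SE 0.17, adjusted p = 1.44e-06), Cdk1 at 266, 289 and 196 (log2 change -0.74, SE 0.16, adjusted p = 0.00019), Plk1 at 81.8, 113 and 93.0 (log2 change -0.82, SE 0.19, adjusted p = 0.000621), Ccnb1 at 37.8, 45.6 and 34.0 (log2 change -0.72, SE 0.16, adjusted p = 0.000223) and Top2a at 642, 745 and 617 (log2 change -0.64, SE 0.10, adjusted p = 3.07e-06). All 5 were below every thapsigargin library. The calls of 25 of the 30 held without any 1 library, with Aurka, Birc5, Cenpa, Cenpe and Kif23 as the exceptions. Prc1, Anln, Ect2 and Ndc80 did not pass the test.

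The interaction for adding halofuginone to thapsigargin passed the test in 11 genes, 2 positive and 9 negative, beside 15.9% and 16.9% of tested genes, with a median of -0.30 against -0.037. Prc1 gave the most negative value, -0.95 (SE 0.21, adjusted p = 0.000608), and Cdc20 the most positive, 0.71 (SE 0.20, adjusted p = 0.00644). Mki67 differed by -0.85 (SE 0.23, adjusted p = 0.0045), Top2a by -0.51 (SE 0.14, adjusted p = 0.00596) and Bora by 0.63 (SE 0.17, adjusted p = 0.00355). From DMSO, halofuginone with thapsigargin lowered 29 and raised 3 genes in WT cells (31.4% and 34.3% of tested genes) and lowered 27 and raised 1 in Perk-null cells (22.2% and 22.9%), with medians of -0.65 and -0.69. In WT cells Kif20a changed by -2.12, Bub1b by -2.06 and Kif2c by -1.93, while Anln rose by 0.55 and Bora by 0.52 (adjusted p 7.37e-14, 1.33e-14, 2.53e-14, 9.98e-05 and 0.000281). In Perk-null cells Kif20a changed by -1.41 and Kif2c by -1.08 (adjusted p 1.34e-09 and 1.38e-08), and Ndc80 rose by 0.35 (adjusted p 0.0251). Cdc23, which overlaps Kif20a, changed by -0.42 in WT and by -0.45 in Perk-null cells. The call of Ndc80 was lost without Perk-null DMSO replicate 2 (0.35), Perk-null DMSO replicate 3 (0.25), Perk-null halofuginone-thapsigargin replicate 1 (0.34) or Perk-null halofuginone-thapsigargin replicate 2 (0.27).

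Across the 14 treatment comparisons, which share control libraries and are not independent, the genes differed in how often they were called. Ccna2, Ttk and Nuf2 were called lower in 12, and Cdk1, Aurkb, Kif11 and Kif2c in 11. Ect2 was called in none, although it differed most between the genotypes in DMSO. Cdc25c was called lower in 2, both in Perk-null cells, Cenpe in 3 and Aurka in 4. Bora was called lower in 3 and higher in 5, Prc1 and Anln each lower in 2 and higher in 3, and Ndc80 lower in 1 and higher in 3. The rises of Prc1 and Anln were all in WT cells with halofuginone, and those of Ndc80 were all in Perk-null cells. Of the midzone kinesins, Kif20a was called lower in 10 and Kif23 in 6.

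**Figure D5:**
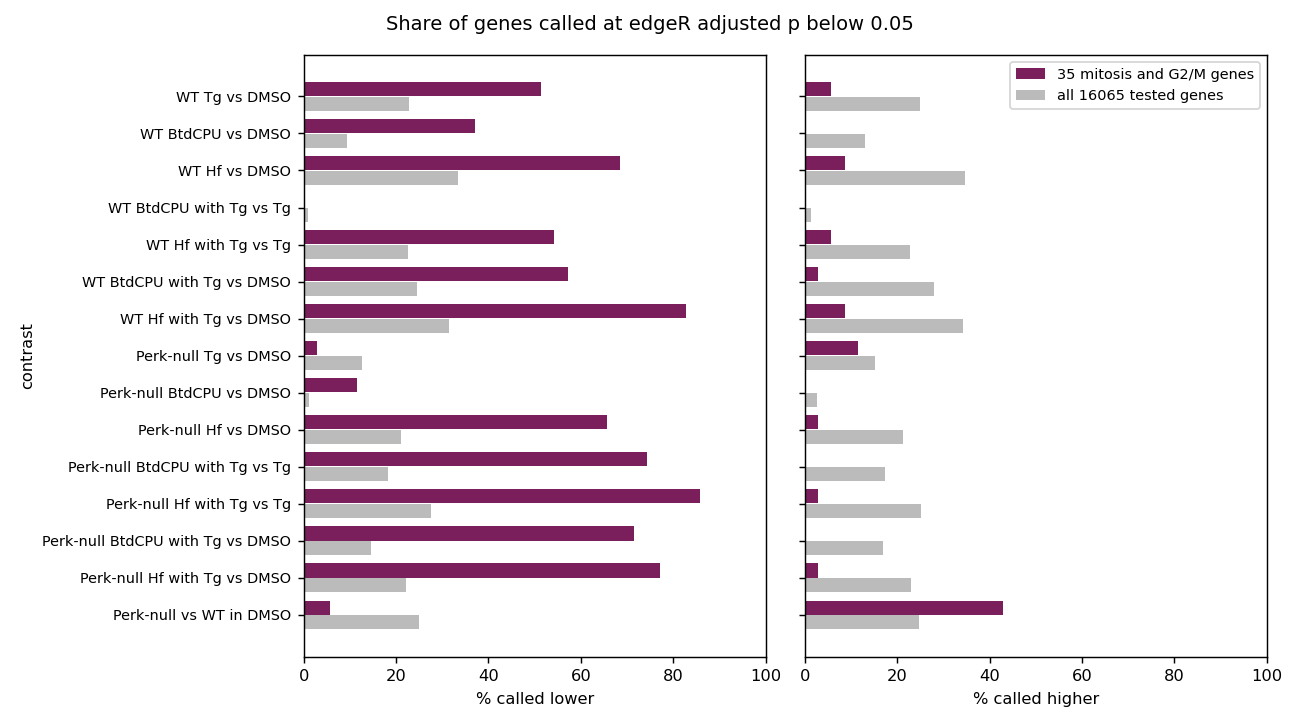
Percent of the 35 genes (purple bars) and of all 16065 tested genes (grey bars) called lower or higher, in 15 comparisons of 2 groups, at an edgeR adjusted p below 0.05. With thapsigargin 18 of the 35 genes are called lower in WT and 1 in Perk-null cells, and with BtdCPU added to thapsigargin 0 in WT and 26 in Perk-null cells.

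Other cell-cycle genes, from lists of known roles, were counted beside the 35. With thapsigargin in WT cells 33 of 44 S phase and replication genes fell and none rose (median -0.74), 13 of 37 further kinetochore and centromere genes fell and 3 rose, and 14 of 33 further spindle and cytokinesis genes fell and 3 rose, beside 22.7% of all tested genes called lower and 24.9% called higher. In Perk-null cells the S phase list had 7 lower and 2 higher, the kinetochore list 0 lower and 4 higher, and the spindle list 2 lower and 8 higher, beside 12.7% and 15.2% of tested genes. When BtdCPU was added to thapsigargin in Perk-null cells, 21 of the 37 kinetochore, 20 of the 33 spindle and 23 of the 44 S phase genes fell, beside 18.3% of tested genes. With halofuginone in WT cells 13 kinetochore genes fell and 10 rose, and in the condensin and cohesin list of 20 genes 7 fell and 10 rose. Over all tested genes 33.4% fell and 34.7% rose, so these counts are not read as a result about either list. In the condensin and cohesin list Pttg1, which encodes securin, changed by -3.19 on the log2 scale, and Smc4, a condensin subunit, by 1.30. In the spindle list Kif2a, a relative of Kif2c, changed by 1.61, while Kif2c itself changed by -1.92.

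Among the regulators of these genes, Foxm1, an activator of G2/M transcription, passed the test in none of the 14 treatment comparisons, and was at 112, 82.9 and 119.8 CPM in WT and 152, 129 and 159 CPM in Perk-null DMSO libraries (log2 difference 0.48, SE 0.16, adjusted p = 0.0149). Mybl2, the MuvB partner B-Myb, fell with halofuginone in WT cells from 58.1, 47.8 and 77.3 to 30.7, 29.6 and 30.3 CPM (log2 change -1.01, SE 0.13, adjusted p = 1.98e-08) and in Perk-null cells (log2 change -0.37, adjusted p = 0.0142). E2f1 fell with thapsigargin in WT cells (log2 change -0.81, adjusted p = 8.65e-08) and did not pass in Perk-null cells (log2 change -0.15, SE 0.10, adjusted p = 0.274). Ccnd1, which encodes the G1 cyclin D1, fell with thapsigargin in both genotypes, from 308, 275 and 402 to 136, 118 and 163 CPM in WT and from 247, 240.4 and 259 to 45.5, 54.2 and 37.8 CPM in Perk-null cells (log2 changes -1.24 and -2.44, adjusted p 1.79e-06 and 2.66e-11). In the same Perk-null libraries Cdk1, Plk1, Top2a, Ccnb1 and Mki67 did not pass the test.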

How the data were processed

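RNA was sequenced from 36 libraries, and the deposited table held estimated counts for 36930 entries, made by the authors, with 0.025 in place of 0. Per the submitters' processing notes DESeq and the genome build GRCm39 were used. The aligner, the counting program and the use of strand are not given in the sources used here. Columns were matched to samples by their titles. The 27 entries named by a date were dropped (0.206% to 0.278% of counts), 39 duplicated symbols were summed, and counts were rounded. edgeR 4.0.16 in R 4.3.3 fitted 1 mean for each of 12 groups over all 36 libraries (TMM scaling, filterByExpr by group, robust quasi-likelihood test, 24 residual degrees of freedom), with Benjamini-Hochberg adjustment across the 16065 genes tested. A gene was called at an adjusted p below 0.05. The script was tested on simulated data. The 20 comparisons were 15 of 2 groups and 5 interactions. Ccnb1, Cdk1, Plk1, Top2a and Mki67 were named throughout, with up to 2 called genes of the largest rise and fall in each comparison of 2 groups, the extreme called genes in each interaction, and genes that went against most. The 35 genes, the roles and the lists were chosen with earlier results of these data known. No pair of libraries agreed within sampling noise (lowest chi-square per degree of freedom 9.06). Deviations of same-numbered libraries were correlated across genes. In WT cells r was 0.159, 0.312 and 0.337 for BtdCPU over thapsigargin, and 0.162, 0.201 and 0.308 for halofuginone over thapsigargin. Only there was r at least 0.159 in all 3 pairs, and only there were the numbers read as pairs. In the other WT comparisons the lowest r ran from 0.041 to 0.068 and the rest from 0.151 to 0.287, so some shared deviation was present there too. In Perk-null cells r reached at most 0.184. Alternatives were DESeq2 1.42.0, other scalings, no filter, a replicate block, a fit of the compared groups alone and leaving out each library. The sequence and annotation tables were of build GRCm38.p6, so coordinates are given for promoters only.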

Additional observations from a re-analysis of the deposited data

Results flagged for a closer look

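The response to a treatment differed between the genotypes, by the interaction test, in the following genes, with the share of all tested genes beside each count. Thapsigargin gave a difference in 18 of the 35 genes, 17 positive (Perk-null minus WT) and 1 negative, beside 19.5% and 18.6% of all tested genes. The extremes were Ccnb2, with 1.27 on the log2 scale, and Bora, with -1.20. Halofuginone gave a difference in 11 genes, 8 positive and 3 negative, beside 17.5% and 17.5%, with Bub1b at 1.28 and Prc1 at -0.83. BtdCPU added to thapsigargin gave 14, all negative, beside 10.1% of all tested genes negative and 10.7% positive, with Mki67 at -1.31. Halofuginone added to thapsigargin gave 11, 2 positive and 9 negative, beside 15.9% and 16.9%, with Cdc20 at 0.71 and Prc1 at -0.95. In both halofuginone comparisons the share of the 35 genes that differed was no higher than that of all tested genes, so these totals are no result about the 35 genes as a set. The totals pool both directions. For halofuginone added to thapsigargin the negative share of the 35 was above that of all tested genes and the positive share below it, and this split was not tested. The comparisons with thapsigargin share libraries, so these counts are not independent of each other.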

How the results depend on the processing

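No change of the 35 genes that was called, in the main fit or in the alternative, reversed its sign. Uncalled values could change sign, as Aurka did with thapsigargin in WT cells, from 0.012 to -0.028 with the replicate block. Of 4200 gene values under the 6 alternatives that keep all libraries, 3932 stayed on their side of the threshold, 203 gained a call and 65 lost one. Of 5250 with 1 library left out, 4908 stayed, 60 gained and 282 lost. The number of genes called moved by over 1.5 times in the following cases. For BtdCPU in WT cells (13 called) it was 21 with the replicate block and 1 in a fit of those libraries alone. For BtdCPU in Perk-null cells (4 called) it was 2 with library size as the only scaling, 10 with DESeq2, 9 with no filter, 15 with the replicate block and 22 in a fit of those libraries alone. For BtdCPU added to thapsigargin in WT cells (0 called) it was 1 with no filter and 2 with the replicate block. For the interaction on adding BtdCPU to thapsigargin (14 called) it was 22 with the replicate block. The block changed no other count by over 1.5 times, and the numbers were read as pairs only in the comparisons named under the processing. For the interaction on adding halofuginone to thapsigargin (11 called) it gave 16, and the 5 genes gained were negative. With 1 library left out, counts ran from 6 to 17 for BtdCPU in WT cells, 1 to 4 in Perk-null cells, 2 to 4 for thapsigargin in Perk-null cells, 15 to 23 for BtdCPU with thapsigargin against DMSO in Perk-null cells, 0 to 1 for the BtdCPU interaction and 8 to 15 for the interaction on adding BtdCPU to thapsigargin. The cause of these moves was not tested. Scaling by library size alone shifted the median of all genes by -0.11 with halofuginone in WT cells and by 0.10 in the halofuginone interaction.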
